A study of Mus musculus with 6 samples.

Results

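The 10 genes described here encode chemokines and inflammatory cytokines known from injured liver: the chemokines *Cxcl1*, *Cxcl2*, *Cxcl9*, *Cxcl10*, *Cxcl12*, *Cxcl13*, *Ccl2* and *Ccl5*, and the cytokines *Il1b* and *Tnf*. They were found by gene name among the 55401 genes of the deposited table, and all 10 had a row. RNA of C57BL/6 mouse liver was sequenced in 6 libraries, 2 in each of 3 groups. The COS+APAP group (replicates 2 and 3) received 20 mg/kg costunolide (COS, a sesquiterpene lactone of plants) 12 h and again 40 min before acetaminophen. The APAP group (replicates 1 and 3) received acetaminophen (APAP, paracetamol) alone, and both groups were taken 6 h after 400 mg/kg APAP given into the peritoneum. The control group (replicates 1 and 3) is labelled normal, with no vehicle named. The comparisons ask what an overdose of APAP did to these genes and what COS given beforehand did to that response.

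The groups are those of the titles, source names and treatment fields. The treatment protocol gives COS to samples numbered 5 and 6, which in accession order are the libraries labelled APAP. If that text and not the labels were right, the names APAP and COS+APAP would be exchanged and each difference between them would have the opposite sign. A prefix number in the titles also sets the COS+APAP libraries off from the other 4, and a batch that goes with it cannot be told apart from COS. Whether replicates were separate animals is not stated in the labels, so the p-values measure the spread between these libraries, which may be technical.

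Chemokines are small secreted proteins that guide leukocytes along a gradient through receptors on the cell surface. In an APAP overdose a reactive metabolite kills hepatocytes around the central veins, and products of the dying cells act on resident macrophages (Kupffer cells), endothelium and surviving hepatocytes, which then make chemokines and cytokines. CXC chemokines with an ELR motif draw neutrophils, CC chemokines such as CCL2 draw monocytes, ligands of CXCR3 draw activated T and NK cells, and IL-1β and TNF are the classic cytokines that switch such genes on in neighbouring cells.

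The 6 libraries held 71115112 to 76669799 estimated counts each, and 9632 to 10153 genes per library reached 1 FPKM (fragments per kilobase of transcript, corrected for library depth). Tests were run with edgeR on the 10051 genes with a mean of at least 1 FPKM over the 6 libraries, and "rose" or "fell" is used only where the Benjamini-Hochberg adjusted p was below 0.05. An exact permutation test of 2 libraries against 2 cannot go below p = 0.33. Hepatocyte markers were abundant: 6 of them summed to 44822 to 47157 FPKM in COS+APAP, 57350 to 59543 FPKM in APAP and 48936 to 49543 FPKM in control livers. An extraction protocol shared by all libraries mentions adipose tissue, and of the adipose genes *Lep* was listed at 0 in every library and *Adipoq* reached at most 0.55 FPKM. In whole liver, fewer cells of a type and less RNA per cell cannot be told apart.

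**Figure D1:**
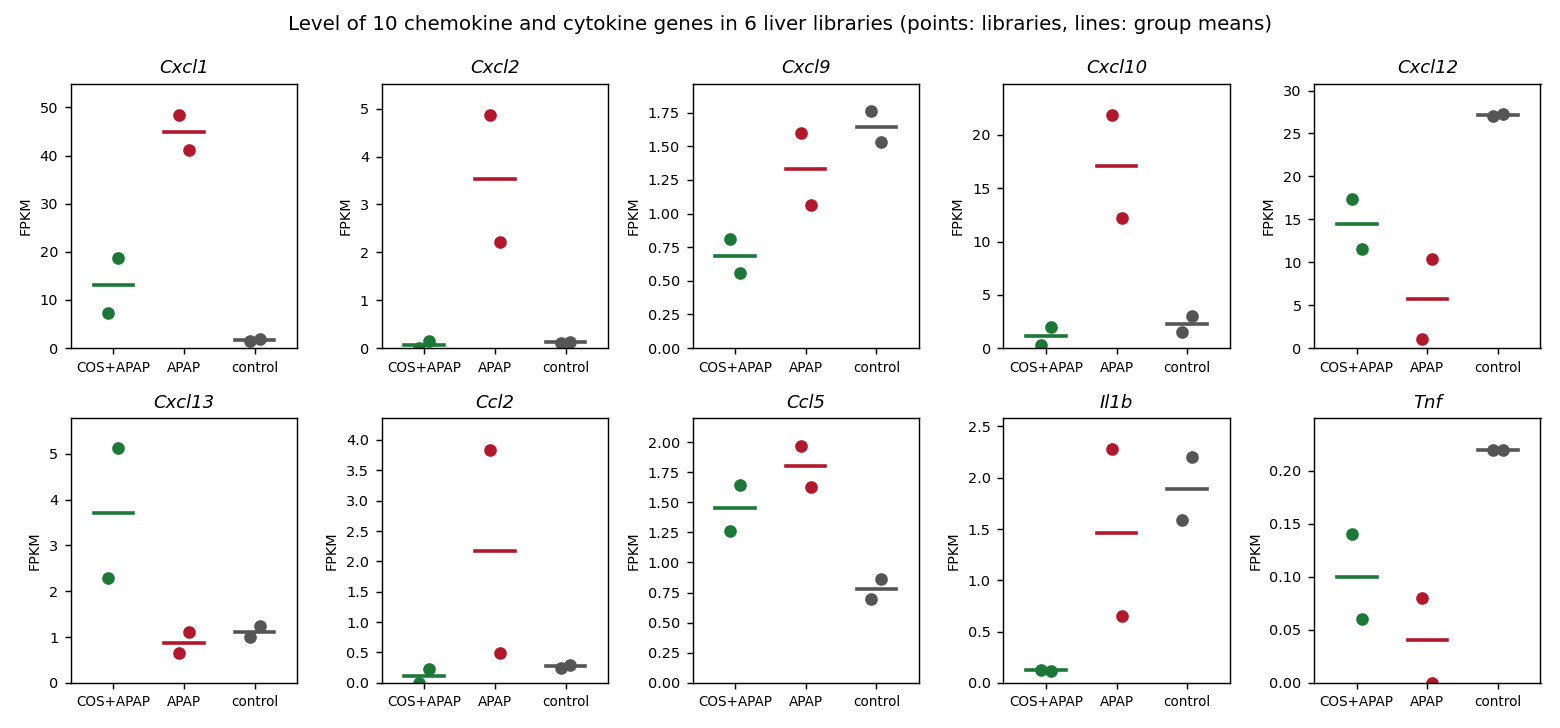
FPKM of the 10 genes (vertical axes, from 0, each with its own scale) in COS+APAP, APAP and control livers, with 1 point per library and a line at each group mean. *Cxcl1*, *Cxcl2* and *Cxcl10* have both APAP points above all other libraries, *Il1b* has both COS+APAP points at 0.12 to 0.13 FPKM, and *Cxcl12* has its lowest point, 1.01 FPKM, in 1 APAP library.

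Promoter sequences are shown first for the 3 chemokine genes that were higher in both APAP libraries than in every other library and passed the tests in both comparisons with APAP, *Cxcl1*, *Cxcl2* and *Cxcl10*. RefSeq (GRCm38.p6) gave a window for 8 of the 10 genes, *Ccl2* and *Ccl5* being without one, and the 250 bases before each start were searched on both strands for GGGA and TTCC with any 2 bases between them, letters of the site known for NF-κB. These letters stood in the windows of *Cxcl1*, *Cxcl2* and *Cxcl10* and in no other of the 8, and 1.21% of 32851 windows of that length in the table held them. The stretches below run 5′ to 3′ on the gene's own strand, with the matching letters in capitals; in *Cxcl1* and *Cxcl2* the match reads on both strands at overlapping positions, was counted as 1 site, and covers all capitals shown.
Cxcl1 (plus strand, chr5:90891150-90891209): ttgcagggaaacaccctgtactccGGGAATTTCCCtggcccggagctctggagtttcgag
Cxcl2 (plus strand, chr5:90903778-90903837): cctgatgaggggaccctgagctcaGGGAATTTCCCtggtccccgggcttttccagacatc
Cxcl10 (minus strand, chr5:92349014-92349073): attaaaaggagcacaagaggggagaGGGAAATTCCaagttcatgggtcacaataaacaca
The matches begin 71, 97 and 159 bases before the annotated starts of *Cxcl1*, *Cxcl2* and *Cxcl10*. *Cxcl10* also held GAAA, any 2 bases and again GAAA, letters of the interferon-stimulated response element, 213 bases before its start and TGANTCA, letters of the AP-1 site, 74 bases before it; 2.98% and 6.75% of all windows held these. The TATA box letters TATAAA were found on the gene's strand in *Cxcl9*, *Cxcl13*, *Il1b* and *Tnf*, against 7.59% of all windows. A match of letters is a description of the window and not a bound site. *Cxcl1* and *Cxcl2* are neighbouring genes with the same letters, so theirs may not be independent matches. The part of these sites in the levels was not tested. Looser forms of the NF-κB site were not searched, so a window without these letters may still hold a site.

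*Cxcl1* and *Cxcl2* encode the ELR chemokines that draw neutrophils through CXCR2. Their genes are neighbours on chromosome 5 of the deposited table, *Cxcl1* (ENSMUSG00000029380) at 90891241 to 90893115 and *Cxcl2* (ENSMUSG00000058427) at 90903871 to 90905938, both on the plus strand with 10755 bases between them. *Cxcl1* had 7.24 and 18.8 FPKM in COS+APAP, 48.5 and 41.2 FPKM in APAP, and 1.42 and 1.97 FPKM in control livers. The 3 groups did not overlap, APAP being highest and control lowest, and the COS+APAP libraries differed most from each other. *Cxcl1* rose in APAP against control livers by 4.87 ± 0.53 on the log2 scale (SE; 95% interval 3.54 to 6.19; a 29.2-fold higher level; adjusted p = 0.00227), and this call held in each alternative that was run. It fell by 1.76 ± 0.46 in COS+APAP against APAP livers (adjusted p = 0.0468), and it was still 8.60-fold above control in COS+APAP livers (log2 fold change 3.10 ± 0.49, adjusted p = 0.0133). The call against APAP rested on single libraries: the adjusted p was 0.0281 without COS+APAP replicate 3 and lay between 0.0665 and 0.160 without any of the other 5, with changes of -2.62 to -1.23; without the level filter it was 0.0669. The call against control was lost without either control library (adjusted p = 0.0630 and 0.0642).

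The second ELR gene was close to 0 in COS+APAP livers. *Cxcl2* had 0 and 0.15 FPKM (0 and 26 counts) in COS+APAP, 4.87 and 2.21 FPKM (802 and 387 counts) in APAP, and 0.11 and 0.13 FPKM (21 and 23 counts) in control livers. Only the APAP libraries stood apart, the other 4 lying within 0.15 FPKM of each other, so that the gene passed the level filter through the APAP libraries and could be tested there because it was high in them. It rose by 4.91 ± 1.19 in APAP against control livers (30.1-fold, adjusted p = 0.0213) and fell by 5.49 ± 1.24 in COS+APAP against APAP livers (adjusted p = 0.0319). In the fit of all genes without that filter the changes were 4.91 and -5.48 (adjusted p = 0.0311 and 0.0464). COS+APAP and control livers differed by -0.58 ± 1.20, with an interval of -3.58 to 2.42, which holds changes in either direction (adjusted p = 0.763). The first call was lost without APAP replicate 1 or either control (adjusted p of 0.0880 to 0.0919), and the other without either APAP or either control library (0.0542 to 0.124). The change against APAP was -4.51 without COS+APAP replicate 2 and -12.28 without COS+APAP replicate 3; the second rests on a library with 0 counts and gives no size. The 10 neutrophil markers summed to 4.04 and 2.66 FPKM in COS+APAP, 32.2 and 10.8 FPKM in APAP, and 4.12 and 6.79 FPKM in control livers. *S100a9*, the largest part of that sum in APAP livers, rose by 2.19 ± 0.59 in APAP against control (adjusted p = 0.0294) and fell by 2.76 ± 0.61 in COS+APAP against APAP livers (adjusted p = 0.0295). It was the only 1 of the 3 tested neutrophil markers that passed in either comparison; *S100a8* had 0.69 and 0.37 FPKM in COS+APAP, 6.00 and 1.83 FPKM in APAP, and 0.52 and 1.86 FPKM in control livers, so that APAP overlapped control. *Ly6g*, the usual surface marker of mouse neutrophils, and *Camp*, a granule gene, were listed at 0 in all libraries. The part of neutrophils in the *Cxcl1* and *Cxcl2* values was not tested.

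CXCL9 and CXCL10 bind CXCR3 and are known as products of interferon-stimulated cells. *Cxcl9* (ENSMUSG00000029417, chromosome 5, 92321347 to 92328079) and *Cxcl10* (ENSMUSG00000034855, 92346638 to 92348882) lie on the minus strand 18558 bases apart. *Cxcl10* had 0.25 and 1.99 FPKM in COS+APAP, 21.9 and 12.2 FPKM in APAP, and 1.47 and 3.05 FPKM in control livers. Both APAP libraries were above all others, whereas COS+APAP and control overlapped. *Cxcl10* rose by 3.06 ± 0.96 in APAP against control livers (8.33-fold, adjusted p = 0.0467) and fell by 3.90 ± 1.00 in COS+APAP against APAP livers (adjusted p = 0.0443). The call in APAP against control was lost without any APAP or control library (adjusted p of 0.0798 to 0.173), and that in COS+APAP against APAP without any library but COS+APAP replicate 3 (0.0641 to 0.147). Its change against APAP was -6.07 without COS+APAP replicate 3 and -3.07 without COS+APAP replicate 2. Without the level filter neither passed (0.0673 and 0.0628). The COS+APAP value against control was -0.84 ± 0.91 (interval -3.12 to 1.44, adjusted p = 0.548). *Art3* overlaps *Cxcl10* on the other strand, and since no source used here states whether counting used the strand, reads of both could be mixed; it was at 0.14 to 0.32 FPKM.

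The pattern of its neighbour was different. *Cxcl9* had 0.81 and 0.56 FPKM in COS+APAP, 1.60 and 1.06 FPKM in APAP, and 1.76 and 1.53 FPKM in control livers. APAP overlapped control, and both COS+APAP libraries lay below the other 4. None of its differences passed: -0.16 ± 0.31 in APAP against control (adjusted p = 0.709), -0.95 ± 0.32 in COS+APAP against APAP (adjusted p = 0.0879) and -1.10 ± 0.32 in COS+APAP against control (adjusted p = 0.0624); DESeq2 called the last 2 (adjusted p = 0.0295 and 0.0100). *Cxcl11*, the third ligand of CXCR3 and 10661 bases from *Cxcl10*, had 0.79 and 0.53 FPKM in COS+APAP, 0.20 and 0.25 FPKM in APAP, and 1.71 and 4.27 FPKM in control livers. It was lowest in APAP, where *Cxcl10* was highest, and fell by 3.58 ± 0.51 in APAP against control (adjusted p = 0.00444). Its difference between COS+APAP and APAP was 1.56 ± 0.49 (adjusted p = 0.0722). *Cxcl11* passed the level filter through the control libraries, where it was high. The 11 markers of T and NK cells, which carry CXCR3, were all under the level filter and summed to 1.75 and 1.23 FPKM in COS+APAP, 1.68 and 1.28 FPKM in APAP and 2.14 and 1.73 FPKM in control livers. *Ifng*, the cytokine that induces the CXCR3 ligands, reached at most 0.07 FPKM in any library.

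CCL2 draws monocytes through CCR2, and CCL5 draws T cells and monocytes. *Ccl2* (ENSMUSG00000035385, chromosome 11, 82035571 to 82037453, plus strand) had 0 and 0.23 FPKM (0 and 23 counts) in COS+APAP, 3.84 and 0.49 FPKM (348 and 48 counts) in APAP, and 0.24 and 0.30 FPKM (24 and 29 counts) in control livers. A single library, APAP replicate 1, held most of its signal, and its mean was below the level filter. In the fit of all 26367 genes without the filter, *Ccl2* differed by 3.08 ± 1.42 in APAP against control livers (adjusted p = 0.209) and by -4.10 ± 1.51 in COS+APAP against APAP livers (adjusted p = 0.176), and neither passed; 18.1% and 7.55% of all genes in that fit did. The predicted gene *Gm17268* overlaps it on the other strand and was listed at 0 in all libraries. *Ccr2* and *Ly6c2*, which define inflammatory monocytes, reached at most 0.20 FPKM. The 9 monocyte markers summed to 106 and 109 FPKM in COS+APAP, 107 and 109 FPKM in APAP and 61.6 and 50.3 FPKM in control livers. Most of it came from *Fn1*, which hepatocytes also make. *Fn1* had 99.9 and 103 FPKM in COS+APAP and 71.4 and 89.6 FPKM in APAP livers. Of the 3 tested markers, *Cd14* fell in COS+APAP against APAP livers and the other 2 did not pass. The part of monocytes in the *Ccl2* values was not tested.

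*Ccl5* (ENSMUSG00000035042, chromosome 11, 83525778 to 83530518, minus strand) changed least among the genes that passed a test. It had 1.26 and 1.64 FPKM in COS+APAP, 1.97 and 1.63 FPKM in APAP, and 0.70 and 0.86 FPKM in control livers. All 4 libraries from APAP-treated mice, with and without COS, were above both controls, and COS+APAP overlapped APAP. *Ccl5* rose by 1.34 ± 0.33 in APAP against control livers (2.53-fold, adjusted p = 0.0226), a call lost without APAP replicate 1 or either control (adjusted p of 0.0592 to 0.0934). In COS+APAP livers it differed from APAP by -0.28 ± 0.32 (interval -1.09 to 0.52, adjusted p = 0.558) and from control by 1.05 ± 0.33 (adjusted p = 0.0751).

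CXCL12 and CXCL13 are constitutive chemokines: CXCL12 holds CXCR4-bearing cells in their niches, and CXCL13 draws CXCR5-bearing B cells. *Cxcl12* (ENSMUSG00000061353, chromosome 6, 117168535 to 117181367, plus strand) had 17.3 and 11.6 FPKM in COS+APAP, 1.01 and 10.3 FPKM in APAP, and 27.1 and 27.2 FPKM in control livers. It was the most abundant of the 10 genes in control livers, and all 4 other libraries were below both controls, but the APAP libraries lay far apart. The difference of APAP from control was -2.14 ± 0.96 and did not pass (interval -4.54 to 0.25, adjusted p = 0.121). With either APAP library alone it passed, at -4.59 with APAP replicate 1 (adjusted p = 0.00594) and -1.30 with APAP replicate 3 (adjusted p = 0.0321); these fits assume that a lone library varies like the other groups. COS+APAP livers differed by 1.39 ± 0.94 from APAP (adjusted p = 0.323) and by -0.75 ± 0.93 from control (adjusted p = 0.598), and the first of these was 3.83 (adjusted p = 0.0143) without APAP replicate 3. The 9 stellate cell markers, a cell type that makes CXCL12 in liver, summed to 14.4 and 11.6 FPKM in COS+APAP, 35.8 and 32.4 FPKM in APAP, and 28.1 and 28.3 FPKM in control livers. Most of these sums came from *Dcn*, with 9.28 and 6.64 FPKM in COS+APAP, 20.9 and 21.1 FPKM in APAP, and 15.5 and 16.5 FPKM in control livers. *Lrat*, *Col1a1* and *Col3a1* were highest in both controls, as *Cxcl12* was, and the rest of the list was not. The part of stellate cells in the *Cxcl12* values was not tested.

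*Cxcl13* was the only one of the 8 tested genes that was higher in COS+APAP livers than in the other groups and passed both tests. The gene (ENSMUSG00000023078, chromosome 5, 95956951 to 95961068, plus strand) had 2.29 and 5.12 FPKM in COS+APAP, 0.65 and 1.10 FPKM in APAP, and 0.99 and 1.23 FPKM in control livers. APAP and control overlapped, and both COS+APAP libraries were above the other 4. *Cxcl13* rose by 2.10 ± 0.49 in COS+APAP against APAP livers (adjusted p = 0.0350) and by 1.89 ± 0.49 against control (adjusted p = 0.0471), and both calls were lost without any library but COS+APAP replicate 2 (adjusted p of 0.0581 to 0.149 against APAP and 0.0638 to 0.190 against control). Without COS+APAP replicate 3 the changes were 1.39 and 1.18. Mean FPKM was 3.705 in COS+APAP, 0.875 in APAP and 1.11 in control livers. The gene thus passed the level filter mainly through the COS+APAP libraries, the group where it was called higher. Without the level filter neither call passed (0.0518 and 0.0754). APAP livers differed from control by -0.21 ± 0.48 (interval -1.41 to 1.00, adjusted p = 0.752). The 6 markers of B cells and plasma cells summed to 2.11 and 2.24 FPKM in COS+APAP, 2.11 and 1.76 FPKM in APAP and 2.51 FPKM in both control livers, none reaching the level filter. Because the COS+APAP libraries differ from the others in title prefix as well, a batch cannot be told apart from COS here.

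IL-1β is made by activated macrophages and neutrophils as a precursor that caspase-1 cuts, and TNF is shed from the same cells and acts on hepatocytes through TNFR1. *Il1b* (ENSMUSG00000027398, chromosome 2, 129364570 to 129371139, minus strand) had 0.13 and 0.12 FPKM (20 counts each) in COS+APAP, 2.28 and 0.65 FPKM (348 and 105 counts) in APAP, and 1.59 and 2.20 FPKM (255 and 340 counts) in control livers. Both COS+APAP libraries were below all others, and the APAP libraries lay on either side of the controls. *Il1b* fell by 3.47 ± 0.69 in COS+APAP against APAP livers (adjusted p = 0.0232) and by 3.69 ± 0.69 against control livers (adjusted p = 0.0208). APAP differed from control by -0.22 ± 0.60 (interval -1.71 to 1.27, adjusted p = 0.788). Group means of *Il1b* were 0.125 FPKM in COS+APAP, 1.465 FPKM in APAP and 1.895 FPKM in control livers. The gene thus passed the level filter through the APAP and control libraries, the groups against which it was called lower. By edgeR without that filter the changes against APAP and control were -3.46 and -3.68 (adjusted p = 0.0328 and 0.0307). The call against APAP was kept without either APAP or either control library, at a change of -2.26 without APAP replicate 1 and -4.12 without APAP replicate 3, and lost without either COS+APAP library (adjusted p = 0.104 and 0.105) and by limma on log2(FPKM + 1) (0.0794). The call against control was lost without either COS+APAP or either control library (0.0511 to 0.109). The 11 Kupffer cell markers summed to 145 and 152 FPKM in COS+APAP, 147 and 196 FPKM in APAP, and 145 and 124 FPKM in control livers. Of these 11, *Marco* was called higher and *Adgre1* lower in COS+APAP against APAP, and the other 9 did not pass. The neutrophil markers summed to 4.04 and 2.66 FPKM in COS+APAP, 32.2 and 10.8 FPKM in APAP and 4.12 and 6.79 FPKM in control livers. In that sum both COS+APAP libraries were below both controls, though replicate 2 lay close to control replicate 1. Both APAP libraries were above control in it. In *Il1b* both COS+APAP libraries lay far below control, and APAP overlapped control. The part of either cell type in the *Il1b* values was not tested. The antisense gene *Il1bos* was at most at 0.06 FPKM.

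*Tnf* (ENSMUSG00000024401, chromosome 17, 35199381 to 35202007, minus strand) was near 0 everywhere. It had 0.14 and 0.06 FPKM (19 and 8 counts) in COS+APAP, 0.08 and 0 FPKM (11 and 0 counts) in APAP, and 0.22 FPKM in both control livers (31 and 29 counts). Both controls were above the other 4 libraries, all at a handful of fragments, since 1 fragment corresponds to about 4 of the deposited counts. In the fit without the level filter no difference passed: -2.23 ± 1.52 in APAP against control (adjusted p = 0.399), 1.31 ± 1.51 in COS+APAP against APAP (adjusted p = 0.648) and -0.92 ± 1.44 in COS+APAP against control (adjusted p = 0.797), where 5.87% of all genes in that fit passed. A change of *Tnf* RNA at 6 h was not detectable at this depth.

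**Figure D2:**
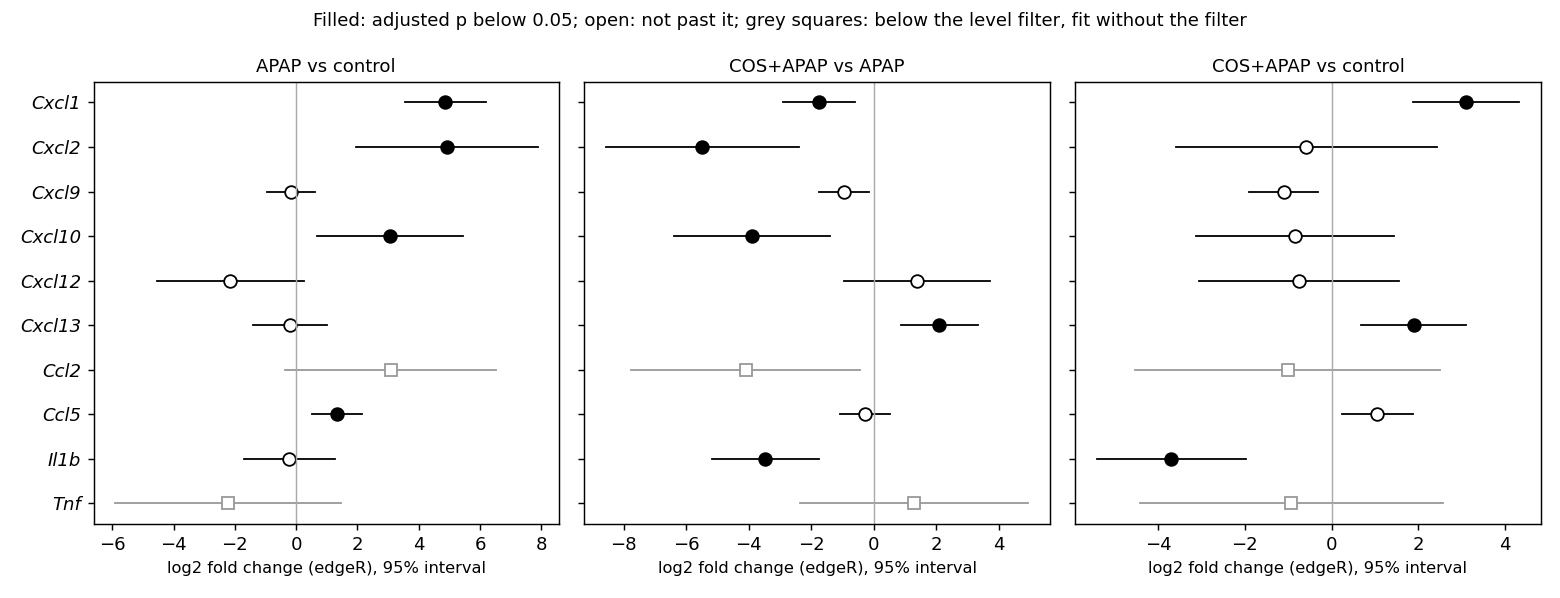
Log2 fold changes of the 10 genes (horizontal axes, edgeR) with 95% intervals in the 3 comparisons, filled where the adjusted p was below 0.05 and open where it was not; grey squares are *Ccl2* and *Tnf*, taken from the fit without the level filter. *Cxcl1* at 4.87 and *Cxcl2* at 4.91 are farthest to the right in APAP against control, and *Cxcl2* at -5.49 is farthest to the left in COS+APAP against APAP.

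Counted over the 8 genes that passed the level filter, 4 passed in APAP against control livers by edgeR's test, all of them higher (*Cxcl1*, *Cxcl2*, *Cxcl10* and *Ccl5*); 45.4% of all tested genes passed in either direction and 23.3% were higher. A share of 4 in 8 is near the 45.4% in either direction and above the 23.3% that were higher. The counts of this paragraph include *Cxcl2* and *Cxcl13*, which passed the level filter mainly through the group where they were high. They also include *Il1b*, which passed it through the APAP and control libraries, against which it was called lower. In COS+APAP against APAP livers 4 fell (*Cxcl1*, *Cxcl2*, *Cxcl10* and *Il1b*) and 1 rose (*Cxcl13*), where 22.4% of all tested genes passed, 11.1% lower and 11.2% higher. In COS+APAP against control livers 2 rose (*Cxcl1* and *Cxcl13*) and 1 fell (*Il1b*), where 21.0% of all tested genes passed, 10.7% higher and 10.3% lower. The median log2 fold changes of the 8 genes were 0.59, -1.35 and -0.67 in these comparisons, beside -0.0024, 0.01 and 0.02 over all tested genes. The number that passed in COS+APAP against APAP was 1 to 3 without any 1 library: 2 without COS+APAP replicate 2, 3 without COS+APAP replicate 3, 1 without APAP replicate 1, 2 without APAP replicate 3 and 1 without either control. In APAP against control it was 1 without either control library and 2 without APAP replicate 1. In COS+APAP against control it was 1 without COS+APAP replicate 3 and 0 by edgeR without control replicate 1 or 3, where 2 and 5 members had an unadjusted p below 0.05. These counts with a library left out are not all of the same genes. *Cxcl12*, not called with all libraries, is in that of APAP against control without APAP replicate 1. It is also in that of COS+APAP against APAP without APAP replicate 3. Counted by libraries that do not overlap, 4 of these 8 genes were higher and 1 lower in APAP against control (32.1% and 44.1% of all tested genes), 2 were higher and 5 lower in COS+APAP against APAP (33.3% and 35.3%), and 3 were higher and 3 lower in COS+APAP against control (25.0% and 42.3%). *Cxcl1*, *Cxcl2* and *Cxcl10* were among 900 of the 10051 tested genes that were called higher in APAP against control and lower in COS+APAP against APAP; these comparisons share the APAP libraries.

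The makeup of the group's RNA differed between the libraries. The 10 genes summed to 29.4 and 40.3 FPKM in COS+APAP, 86.7 and 70.9 FPKM in APAP, and 35.6 and 38.7 FPKM in control livers. *Cxcl12* made up 76.1% and 70.3% of this sum in control livers, and *Cxcl1* made up 56.0% and 58.1% in APAP livers. In COS+APAP livers *Cxcl12* led in replicate 2 with 58.8% and *Cxcl1* in replicate 3 with 46.7%. Without *Cxcl12* the sums were 12.1 and 28.7 FPKM in COS+APAP, 85.7 and 60.5 FPKM in APAP, and 8.50 and 11.5 FPKM in control livers.

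The 3′ UTRs of some of these genes are known for AU-rich elements, which bind proteins that shorten the life of the transcript. The letters TATTTAT (written as DNA) are the site known for tristetraprolin, the product of *Zfp36*. In the longest 3′ UTR per gene of GENCODE release M21, *Cxcl1* held 6 of these, *Cxcl2* 7, *Il1b* 3, *Tnf* 8 and *Cxcl12* 1, and the other 5 genes held none; 27.6% of 21020 genes held at least 1 and 10.4% at least 2. Per kilobase of UTR, ATTTA occurred 11.8 times in *Cxcl1*, 7.36 in *Cxcl2*, 8.71 in *Il1b* and 10.5 in *Tnf*, and 1.93 times over all genes. The densest stretch of each of the 4 genes with 3 or more TATTTAT is shown, with ATTTA repeats in capitals.
Cxcl1: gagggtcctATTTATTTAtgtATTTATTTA
Cxcl2: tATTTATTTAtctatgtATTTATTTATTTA
Il1b: caaccacttacctATTTATTTAtgtATTTA
Tnf: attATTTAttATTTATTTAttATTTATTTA
These 4 genes did not share a pattern of levels: the APAP libraries were the highest in *Cxcl1* and *Cxcl2*, overlapped control in *Il1b* and were below control in *Tnf*. Among 13 regulators of the decay of such transcripts, 10 were tested; 5 rose and 1 fell in APAP against control (median 0.81), and 4 passed in COS+APAP against APAP, all lower (median -0.40), beside 45.4% and 22.4% of all tested genes. *Zfp36* itself had 27.5 and 40.0 FPKM in COS+APAP, 148 and 159 FPKM in APAP, and 30.5 and 25.7 FPKM in control livers. It rose by 2.58 ± 0.22 in APAP against control (adjusted p = 0.00151) and fell by 2.16 ± 0.22 in COS+APAP against APAP (adjusted p = 0.00635). *Mapkapk2*, the kinase known to switch tristetraprolin off, rose by 2.17 ± 0.16 and fell by 0.90 ± 0.16 in the same comparisons, and *Elavl1*, which encodes the stabilising protein HuR, rose by 1.33 ± 0.15 and fell by 1.36 ± 0.15.

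RNA of chemokine receptors was scarce. All 23 chemokine receptor genes were below the level filter, and the highest value of any was 0.97 FPKM, of the scavenging receptor gene *Ackr2*. *Cxcr2*, for CXCL1 and CXCL2, had 0.06 and 0.05 FPKM in COS+APAP, 0.26 and 0.18 FPKM in APAP, and 0 and 0.18 FPKM in control livers. *Cxcr4*, for CXCL12, had 0.49 and 0.46 FPKM in COS+APAP, 0.68 and 0.63 FPKM in APAP, and 0.32 and 0.46 FPKM in control livers. *Cxcr3* and *Ccr2* stayed at or below 0.39 FPKM. *Ackr3*, which takes up CXCL12, had 0.09 and 0.18 FPKM in COS+APAP, 0.75 and 0.56 FPKM in APAP, and 0.15 FPKM in both control livers. Both APAP libraries were above the rest, with 200 and 159 counts, but the mean of *Ackr3* was below the level filter.

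Of 28 other chemokine genes, 7 were tested; 3 rose and 3 fell in APAP against control (median -0.64), and 3 passed in COS+APAP against APAP, all lower (median -0.91), beside 45.4% and 22.4% of all tested genes. *Ccl6*, a macrophage chemokine of mice, rose by 2.89 ± 0.27 in APAP against control and fell by 1.36 ± 0.25 in COS+APAP against APAP livers. *Ccl21a*, a ligand of CCR7, and *Pf4*, which platelets carry, rose by 2.26 ± 0.61 and 1.42 ± 0.45 in APAP against control. They fell by 2.71 ± 0.62 and 2.04 ± 0.46 in COS+APAP against APAP. Mean FPKM in COS+APAP, APAP and control livers was 0.62, 4.115 and 0.94 for *Ccl21a* and 0.665, 2.81 and 1.135 for *Pf4*. Both genes thus passed the level filter mainly through the APAP libraries, where they were high. *Pf4* moved with the 6 erythroid and platelet markers, a list that holds it, which summed to 191 and 198 FPKM in COS+APAP, 908 and 655 FPKM in APAP, and 183 and 159 FPKM in control livers. What part blood in the tissue has in these values was not tested. The remaining genes that fell in APAP livers were *Cxcl11*, *Ccl9* and *Ccl27a*.

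In the IL-1 family and its processing, 11 of 22 listed genes were tested; 3 rose and 3 fell in APAP against control (median 0.01), and 1 passed in COS+APAP against APAP, higher (median 0.21), beside 45.4% and 22.4% of all tested genes. *Il1r1*, the signalling receptor of IL-1β, rose by 2.66 ± 0.36 in APAP against control (adjusted p = 0.00374) and differed by 0.40 ± 0.34 between COS+APAP and APAP (adjusted p = 0.422), in contrast to *Il1b*, which did not pass in the first comparison and fell in the other. The adaptor gene *Irak2* rose by 2.49 ± 0.39 in APAP against control, and *Gsdmd*, whose product forms the pore through which IL-1β leaves cells, fell by 1.16 ± 0.15 there and rose by 0.77 ± 0.14 in COS+APAP against APAP. Of 17 genes of TNF signalling, 13 were tested; 5 rose and 1 fell in APAP against control (median 0.32), and 4 passed in COS+APAP against APAP, all lower (median -0.03), beside 45.4% and 22.4% of all tested genes. *Tnfrsf1a*, which encodes TNFR1, had 32.7 and 33.6 FPKM in COS+APAP, 42.8 and 50.5 FPKM in APAP, and 21.3 and 22.4 FPKM in control livers. The groups did not overlap, and it rose by 1.23 ± 0.11 in APAP against control (adjusted p = 0.00167) and fell by 0.47 ± 0.11 in COS+APAP against APAP (adjusted p = 0.0350). *Tnfrsf1b*, the gene of the other TNF receptor, rose by 1.30 ± 0.26 in APAP against control. *Rhbdf2*, needed to shed TNF from the cell surface, rose by 3.26 ± 0.55 in APAP against control and fell by 2.13 ± 0.53 in COS+APAP against APAP, although *Tnf* itself was near 0.

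Upstream of the CXCR3 ligands, 6 of 13 genes of the interferon gamma axis were tested; 3 rose and 2 fell in APAP against control (median 0.73), and 2 passed in COS+APAP against APAP, both lower (median -0.40), beside 45.4% and 22.4% of all tested genes. *Irf1*, a transcription factor known to induce *Cxcl9* and *Cxcl10*, fell by 1.23 ± 0.24 in APAP against control (adjusted p = 0.0109), where *Cxcl10* rose. Between COS+APAP and APAP it differed by 0.01 ± 0.24 and did not pass (adjusted p = 0.986). Among 14 receptors for products of dying cells, 3 were tested. *Cd14*, the coreceptor of TLR4, had 2.55 and 1.81 FPKM in COS+APAP, 31.8 and 14.5 FPKM in APAP, and 1.21 and 0.85 FPKM in control livers. Like *Cxcl1* it was highest in both APAP libraries, and it rose by 4.63 ± 0.49 in APAP against control (adjusted p = 0.00218) and fell by 3.39 ± 0.46 in COS+APAP against APAP (adjusted p = 0.0108); the other 2 genes did not pass.

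**Figure D3:**
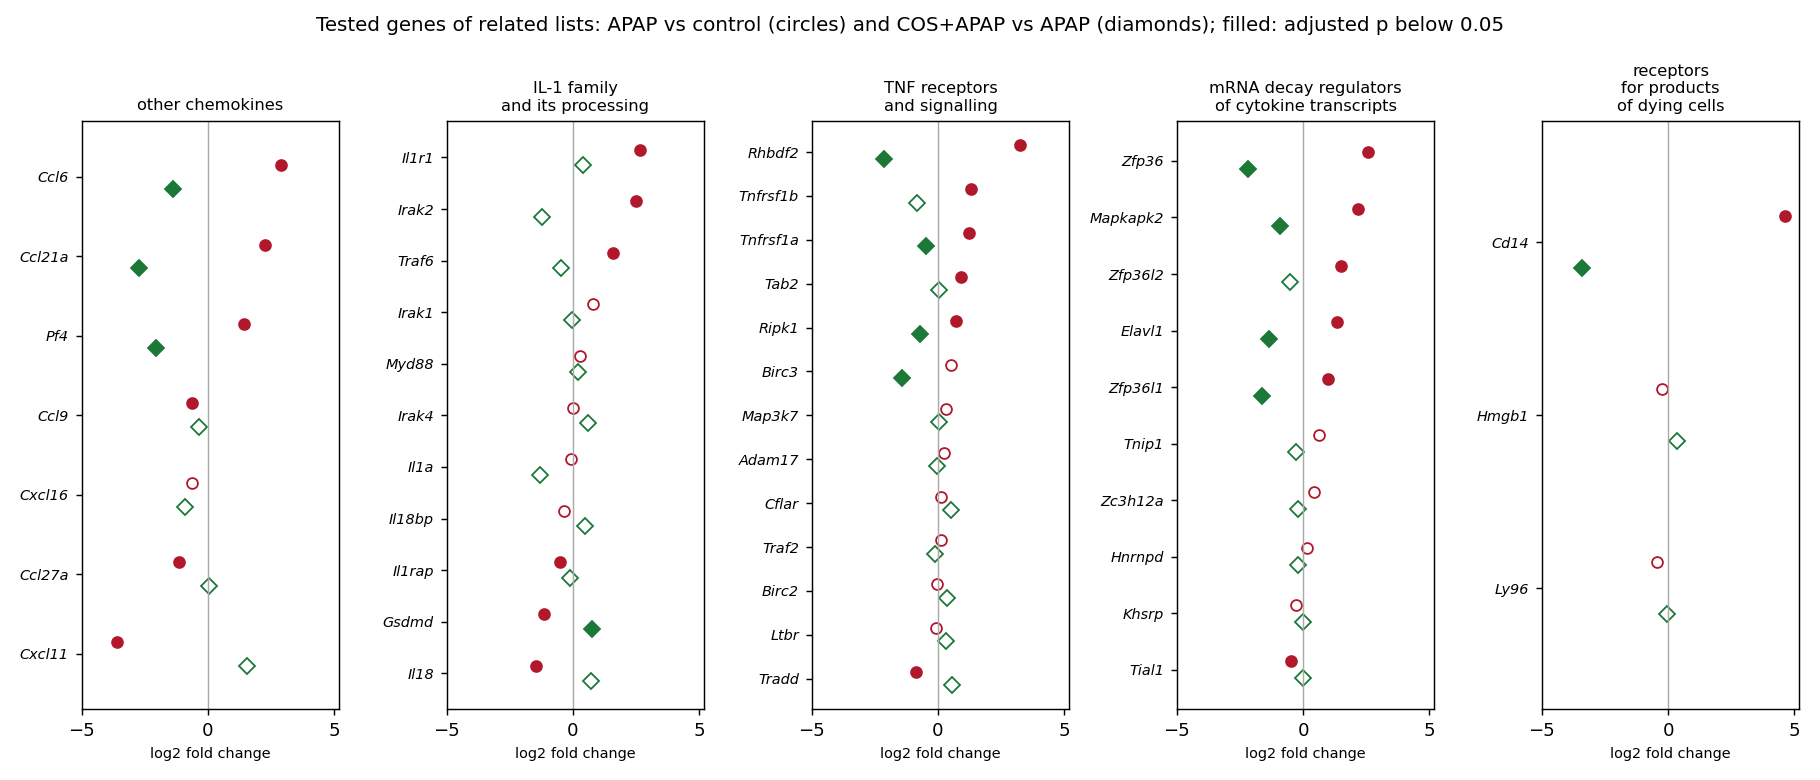
Log2 fold changes (horizontal axes) of the tested genes of 5 of the related lists in APAP against control (circles) and COS+APAP against APAP (diamonds), filled where the adjusted p was below 0.05. *Zfp36* at 2.58 and *Cd14* at 4.63 have a filled circle to the right of 0 and a filled diamond to the left, whereas *Il1r1* has only its circle filled.

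The genes whose levels over the 6 libraries were most like those of each tested member were found by the Euclidean distance between mean-centred log2(FPKM + 1) values. For *Cxcl2* they were *Hbegf* (distance 0.192), *Plaur* (0.290) and *Kctd3* (0.340), and *Hbegf* had 0.09 and 0.16 FPKM in COS+APAP, 4.36 and 2.06 FPKM in APAP, and 0.10 and 0.13 FPKM in control livers. For *Cxcl1* they were *Lrrc8a* (0.775), *Ifrd1* (0.785) and *Tnfrsf12a* (0.816), and for *Cxcl10* they were *Gm10639* (0.683), *Rnd3* (0.783) and *Trib1* (1.05). *Cxcl13* had *Gadd45g* (0.434), *Pmm1* (0.541) and *Isyna1* (0.561) nearest to it, *Il1b* had *Afm* (0.376), *Snora31* (0.388) and *Tgtp2* (0.405), and *Cxcl12* had *Hnrnpa3* (0.727), *Cyp2c37* (1.11) and *Tmem254a* (1.36). *Ccl5* had *Phf8* (0.117), *Snx17* (0.118) and *Fth1* (0.150) nearest to it, and *Cxcl9* had *5033403H07Rik* (0.148), *Aadac* (0.166) and *Grap* (0.167). No other member of the 10 was among the 3 nearest genes of any.

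**Figure D4:**
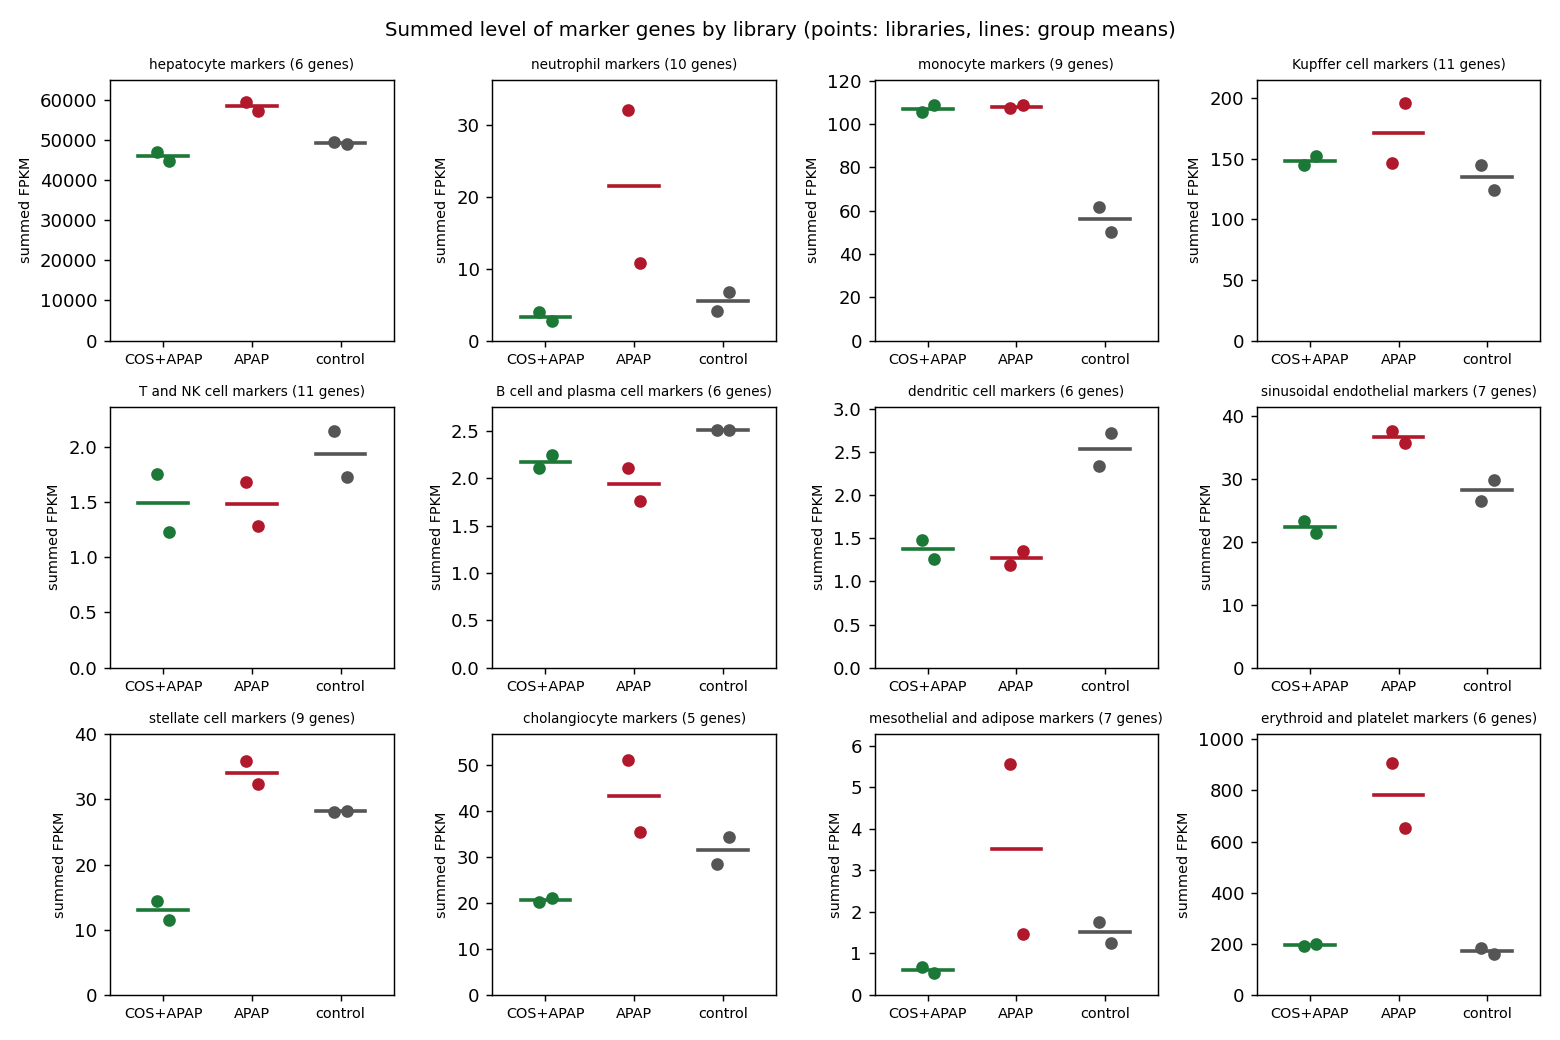
Summed FPKM of 12 lists of cell type marker genes (vertical axes, from 0, each with its own scale) in COS+APAP, APAP and control livers, with 1 point per library and a line at each group mean. Neutrophil markers are highest in the 2 APAP libraries at 32.2 and 10.8 FPKM, and T and NK cell markers lie between 1.23 and 2.14 FPKM in all 6.

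Markers of the remaining cell types are given as summed levels, since several moved with the groups. Sinusoidal endothelial markers summed to 23.4 and 21.4 FPKM in COS+APAP, 37.6 and 35.6 FPKM in APAP, and 26.5 and 29.8 FPKM in control livers. Cholangiocyte markers summed to 20.2 and 21.0 FPKM in COS+APAP, 51.0 and 35.4 FPKM in APAP, and 28.5 and 34.4 FPKM in control livers. Dendritic cell markers summed to 1.48 and 1.26 FPKM in COS+APAP, 1.19 and 1.35 FPKM in APAP, and 2.34 and 2.72 FPKM in control livers. The mesothelial and adipose list summed to 0.68 and 0.52 FPKM in COS+APAP, 5.57 and 1.47 FPKM in APAP, and 1.76 and 1.26 FPKM in control livers. APAP replicate 1 was above APAP replicate 3 in this list, in the neutrophil list and in 8 of the 10 genes, and below it in *Cxcl12* and *Cxcl13*. The part of these cell types and of that library in the results was not tested.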

How the data were processed

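Paired-end poly(A) RNA sequencing of 6 mouse liver libraries was used. The submitters' processing notes name HISAT2 2.0 and StringTie 1.3.0. No build is given in the sources used here, and coordinates are those of the deposited table; of 55141 gene identifiers shared with GENCODE release M21, 86.9% had the same position, as had 9 of the 10 genes described. The authors deposited estimated counts per gene, per the file headers, which were whole numbers already and were used unchanged. The authors also deposited FPKM values, per the file headers, which scale for length and depth. Another 6 FPKM columns fit none of the labelled samples and were not used. Counts lay mostly at multiples of 4 when small, so a fragment was worth about 4 of them and low genes are less precise than their counts.

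From the counts, edgeR 4.0.16 (R 4.3.3) was run with TMM factors and the quasi-likelihood F test, 2-sided, in 1 model of 3 groups with 3 residual degrees of freedom, on 10051 genes with a mean of at least 1 FPKM. The SE is the fold change divided by the root of F, and intervals are at 95%. The script was tested on simulated data. Alternatives were no filter, edgeR's own filter, RLE or upper quartile factors, DESeq2 1.42.0, limma 3.58.1 on log2(FPKM + 1) and log2(FPKM + 0.1), counts divided by 4, only the groups compared, a replicate block and each library left out. The 10 genes and all lists were chosen with earlier results of these data known. All 10 genes are named, together with up to 4 called genes of each related list with the largest change. Receptors of the 10, cell type markers, and the 3 nearest genes of each are named too. *S100a8*, *S100a9*, *Marco*, *Adgre1*, *Fn1*, *Dcn*, *Lrat*, *Col1a1*, *Col3a1*, *Ackr2*, *Ccl9*, *Ccl27a* and the 3 genes that overlap a member were named after their values were seen. Some genes of the lists are counted but not reported here by name. Promoter windows came from RefSeq, UTRs from GENCODE M21.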

Additional observations from a re-analysis of the deposited data

How the results depend on the processing

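Of the fold changes of single members, none of those called changed sign in any alternative; *Cxcl1* in APAP against control passed in all of them. Genes called in APAP against control numbered 4561, and 3033 to 4117 with 1 library left out, with 1 to 4 of the 8 members. In COS+APAP against APAP, 2249 genes were called in the analysis reported, 3552 by DESeq2 and 612 to 1941 with 1 library left out. Members called there numbered 5, with 2 when no filter was used, 3 with edgeR's own filter, 1 when only the 2 groups compared were fitted, and 1 to 3 with 1 library left out. In COS+APAP against control, 2109 genes were called, 3422 by DESeq2 and 590 to 1716 with 1 library left out; members called numbered 3, 5 by DESeq2 and 0 to 2 with 1 library left out. The counts of 0 came from edgeR without either control, where 2 and 5 members had an unadjusted p below 0.05. The cause of these moves was not tested, beyond the fewer libraries or groups in each fit.

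The differences between replicates 1 and 3 of the APAP and control groups had a correlation of -0.01 over 10051 genes. No shared deviation was seen, but with 1 such difference per group this cannot exclude that the numbers pair the libraries. COS+APAP shares only the number 3 with the other groups, and its pairing could not be checked. With the replicate block, 3370 genes and 3 members were called in APAP against control, 31 genes and 0 members in COS+APAP against APAP (5 members with an unadjusted p below 0.05), and 139 genes and 1 member in COS+APAP against control.

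Other scaling moved the median of all genes in APAP against control by -0.12 with upper quartile factors, which gave 1567 higher and 930 lower genes in COS+APAP against APAP where TMM gave 1130 and 1119. On log2(FPKM + 1), limma gave 1928 higher and 2813 lower genes in APAP against control (2342 and 2219 by edgeR) and 681 higher and 1638 lower in COS+APAP against control (1073 and 1036 by edgeR). Depth limits *Tnf*, *Ccl2* and the receptors, whose libraries hold few fragments.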
